A study of Mus musculus with 143 samples.

Results

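Within 143 single microglia that were sorted for the same surface phenotype, the cells with the most Spp1 RNA were set against the cells with the least. Spp1 level was the number of Spp1 counts per 1000000 other gene counts of the cell (CPM), with spike-ins and Spp1 itself left out of the total. Cells were ranked by it within each of the 2 plates, and the upper and lower 3rds of each plate were taken, rounded down. This gave 47 Spp1-high cells (31 of plate 1 and 16 of plate 2) and 47 Spp1-low cells (31 and 16), so 94 of all 143 cells. The 49 cells between them (33 and 16) are called Spp1-middle and serve to show order. The groups were chosen by these Spp1 levels, so Spp1 itself is described and never compared.

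Spp1 encodes osteopontin, a secreted phosphoprotein of bone and of activated macrophages. It binds integrins through an RGD motif and also binds the hyaluronan receptor CD44, and the Golgi kinase Fam20c phosphorylates it on its way out of the cell. In the postnatal brain it is a known product of the amoeboid microglia of growing white matter, which also make Igf1, Gpnmb, Clec7a and Itgax and resemble the disease-associated microglia of the aged brain.

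All cells came from the cerebellum of wild type male C57BL/6N mice at postnatal day 7, pooled over animals, and passed a sort for CD45 low, CD11b+, Gpnmb+ and Clec7a+ cells. Spp1-high, Spp1-middle and Spp1-low cells therefore share genotype, strain, sex, age, tissue and gate, and the labels name no treatment. The library name in the labels carries the word adult, but day 7 stands in the age label and in the name of the series, and was used. Libraries were made by Smart-seq2, which reads whole transcripts and tags no single molecules. Since cells cannot be traced to an animal, each group of cells counts as 1 sample, no test between groups was possible and no p-value is given. The plate was read from the suffix of the column names, and the plates serve as technical repeats. Intervals below are exact, at 95%. Those of pooled CPM treat reads as independent, but reads of 1 molecule are not, so these intervals are too narrow. Those of shares of cells treat the cells of the pool as independent draws. Neither kind covers the spread between animals.

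The cells of both groups were microglia by their markers. Fcrls and Csf1r, defining genes of microglia, were read in 47 of 47 Spp1-high and 47 of 47 Spp1-low cells. Of other cell types, the summed level of the 11 border-associated macrophage genes was 887 CPM in Spp1-high and 776 CPM in Spp1-low cells (single cells between 0 and 2766 CPM in Spp1-high and between 0 and 3810 CPM in Spp1-low cells). The 7 monocyte genes summed to 103.3 CPM in Spp1-high and 37.0 CPM in Spp1-low cells, of which Fn1 made up 99.7 and 28.5 CPM, and Ly6c2, Plac8 and Chi3l3 were at 0 in every cell. The 7 pericyte and fibroblast genes were at 0 in every cell. Their part in the results was not tested. Total counts per cell ran between 271190 and 1226521. Median gene counts without Spp1 were 659055 in Spp1-high and 730042 in Spp1-low cells, and median genes detected 3135 and 3508. Gene counts per spike-in count, a measure of RNA content, had medians of 23.1 and 25.4.

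The promoters of 4 genes on which the results turn are shown for reference, as RefSeq windows of 250 bases before to 50 bases after the transcription start (GRCm38.p6, read along the gene's strand). They are Spp1, which ranks the cells (chr5:104434861-104435160, plus strand), its kinase Fam20c (chr5:138754831-138755130, plus strand), Itgax, among the genes highest with it (chr7:128129300-128129599, plus strand), and Cdc20, a mitotic gene among the lowest (chr4:118437294-118437593, minus strand). Capitals mark matches on either strand to CACGTG (E-box), TGANTCA (AP-1), TTTGAA (the cell cycle homology region, CHR), CCAAT and GAGGAAGT (a PU.1 core).
Spp1: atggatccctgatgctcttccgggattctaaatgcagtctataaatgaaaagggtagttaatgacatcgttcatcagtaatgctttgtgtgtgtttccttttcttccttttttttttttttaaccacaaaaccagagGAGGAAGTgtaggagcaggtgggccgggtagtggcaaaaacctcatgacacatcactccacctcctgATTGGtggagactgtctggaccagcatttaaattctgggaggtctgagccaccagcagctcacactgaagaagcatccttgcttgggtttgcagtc
Fam20c: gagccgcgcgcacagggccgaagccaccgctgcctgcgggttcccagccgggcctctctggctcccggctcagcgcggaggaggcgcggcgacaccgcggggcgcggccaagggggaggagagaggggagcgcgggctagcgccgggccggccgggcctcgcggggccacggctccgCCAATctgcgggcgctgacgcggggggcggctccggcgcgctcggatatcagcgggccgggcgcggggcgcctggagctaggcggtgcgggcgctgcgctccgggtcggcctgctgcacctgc
Itgax: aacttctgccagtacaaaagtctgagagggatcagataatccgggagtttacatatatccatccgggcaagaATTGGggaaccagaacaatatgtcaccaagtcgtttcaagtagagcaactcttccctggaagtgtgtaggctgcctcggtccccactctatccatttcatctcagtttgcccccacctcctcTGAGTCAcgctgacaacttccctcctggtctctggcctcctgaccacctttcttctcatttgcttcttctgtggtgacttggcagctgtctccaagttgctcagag
Cdc20: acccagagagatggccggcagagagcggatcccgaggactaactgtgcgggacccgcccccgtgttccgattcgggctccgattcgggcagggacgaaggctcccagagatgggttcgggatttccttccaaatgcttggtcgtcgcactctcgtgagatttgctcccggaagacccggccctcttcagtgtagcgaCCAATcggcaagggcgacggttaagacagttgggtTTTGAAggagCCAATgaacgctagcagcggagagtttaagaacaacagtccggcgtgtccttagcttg
The Spp1 window held the PU.1 core, which 3.20% of 32851 mouse promoter windows hold, and a reverse CCAAT, which 37.4% hold. The Itgax window held the AP-1 motif (7.81% of windows) and a reverse CCAAT, and the Fam20c window a CCAAT. The Cdc20 window held a CHR (17.9% of windows) between a pair of CCAAT motifs. None of the 4 windows held the E-box. A match describes letters and is not a binding site.

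Spp1 ran over a continuous range with no gap at the group limits. On plate 1 the Spp1-high cells lay between 59628 and 99250 CPM with a median of 68946, and the Spp1-low cells between 2.70 and 37740 CPM with a median of 21668. On plate 2 the Spp1-high cells lay between 61167 and 91719 CPM (median 69888), and the Spp1-low cells between 5038 and 41522 CPM (median 26125). The highest Spp1-middle cells stood at 59411 and 58078 CPM and the lowest at 39159 and 41724 CPM on plates 1 and 2, right beside the limits. The range within the Spp1-low cells was the wider one. In the median Spp1-high cell, Spp1 took 6.49% of all gene counts, and in the median Spp1-low cell 2.34%.

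**Figure D1:**
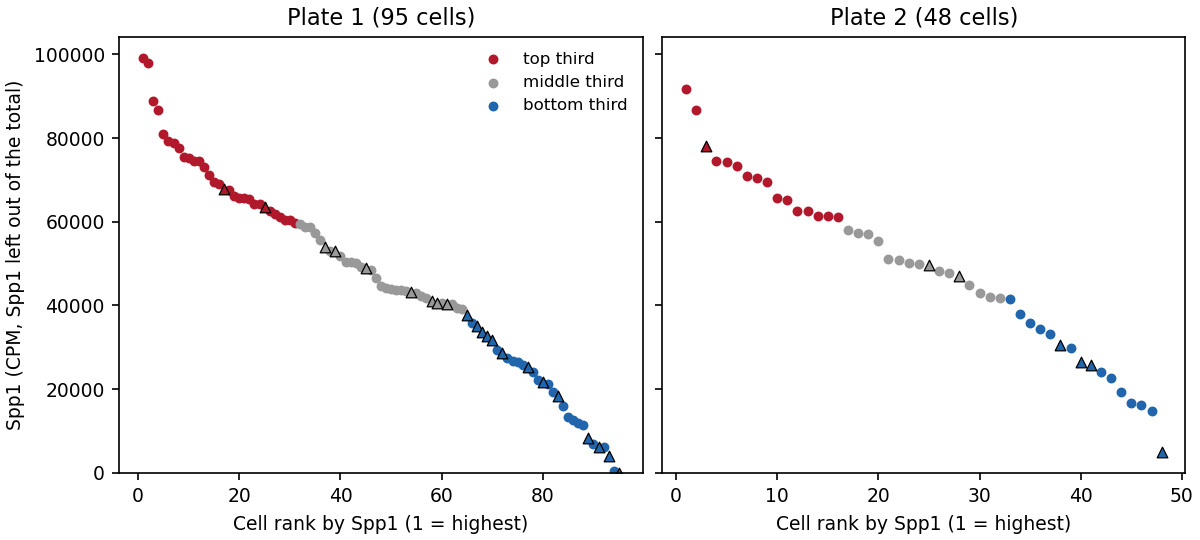
Spp1 level of each cell (CPM, vertical axis) against its rank within plate 1 (left) and plate 2 (right). Red, grey and blue mark the top, middle and bottom 3rds (Spp1-high, Spp1-middle and Spp1-low cells), and triangles the cells of the G2/M class. The curve falls without a step at the limits, and 17 of the 47 Spp1-low cells are triangles.

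The floor of that range held a few separate cells. Spp1 was under 10000 CPM in 8 cells, 7 of plate 1 and 1 of plate 2, of which 5 were in the G2/M class and 1 in the S class. The 2 lowest, at 2.70 and 501 CPM, were the only 2 of 143 cells without a Gpnmb read. Those 2 cells had 3013 and 2668 CPM of P2ry12, the purinergic receptor of resting microglia, against a median of 479 CPM in all Spp1-low cells. Such a level was not particular to them. Another of the 8 cells, with 599 CPM of Gpnmb and 6848 CPM of Spp1, had 3063 CPM of P2ry12, while the cell of plate 2 had 0. The 2 lowest cells also had Cx3cr1 (4922 and 6886 CPM) and Fcrls (3216 and 5823 CPM), so microglial genes were read in both. Of 74 called genes named here, 66 were still called without these 8 cells, and those that were not are Cspg4, Fabp5, Nop56, P2ry12, Pltp, Psph, Rap2b and Usf1.

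The comparison covered 7263 genes with a pooled level of at least 10 CPM (summed counts over summed gene counts) and a read in at least 10% of cells. A gene is called higher or lower when its pooled CPM + 1 differs at least 1.5-fold the same way on each plate. By this rule 449 genes were higher in Spp1-high cells (6.18% of those compared) and 739 lower (10.2%). Counts of called genes in each list below are to be read beside these shares. Most of these were sparse: of 5077 genes read in under 50% of cells, 8.21% were called higher and 13% lower, while of 2186 genes read in 50% or more, 1.46% (32 genes) were higher and 3.52% (77) lower. The middle cells lay between the ends for 287 of the 449 higher genes (63.9%, or 3.95% of all genes compared) and 509 of the 739 lower ones (68.9%, or 7.01%). Across all genes compared, the log2 ratios of the 2 plates had the same sign in 55.2% and a Spearman rho of 0.12. The median log2 ratio of all genes was -0.08.

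**Figure D2:**
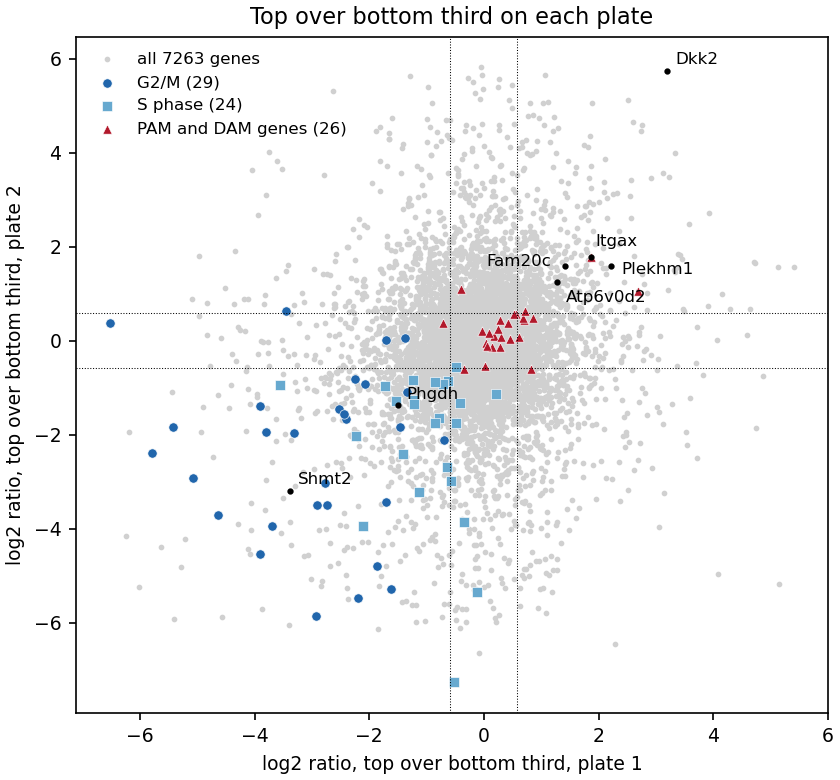
Log2 ratio of pooled CPM + 1, Spp1-high over Spp1-low cells, on plate 1 (horizontal) and plate 2 (vertical) for 7263 genes, with dotted lines at 1.5-fold. G2/M genes (circles) and S phase genes (squares) lie mainly at the lower left, where 25 of 29 and 16 of 24 are called lower (25 and 18 with only the comparison scaled to spike-in counts, 3 and 1 with the ranking scaled too), and genes of the postnatal and disease-associated programme (triangles) cluster just above 0.

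Of the genes higher in Spp1-high cells, the 12 with the largest smaller-of-plates ratio among those read in at least 30% of cells were Pi4ka, Itgax, Tm7sf3, Tecpr1, Nampt, 1200014J11Rik, Gcc2, Ate1, Plekhm1, Acot2, Fam20c and Poldip2. Of these, Pi4ka makes phosphatidylinositol 4-phosphate for the plasma membrane, Gcc2 is a golgin of the trans-Golgi network, and Plekhm1 and Tecpr1 act where autophagosomes and endosomes meet lysosomes. Nampt makes the precursor of NAD, Ate1 attaches arginine to proteins, and Acot2 is a mitochondrial acyl-CoA thioesterase. In 10 of the 12 the Spp1-middle cells lay between the ends, the exceptions being 1200014J11Rik and Poldip2.

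Itgax, the alpha chain of the integrin CD11c/CD18 and a marker of the white matter programme, was one of them. In Spp1-high cells it ran between 0 and 1989 CPM with a median of 205, and in Spp1-low cells between 0 and 730 CPM with a median of 0. The groups overlapped, but 34 of 47 Spp1-high cells had a read (72.3%, interval 57.4 to 84.4%), against 23 of 49 Spp1-middle cells and 18 of 47 Spp1-low cells (38.3%, 24.5 to 53.6%). Pooled levels were 319 CPM (313 to 325) in Spp1-high, 177 in Spp1-middle and 88.5 CPM (85.3 to 91.7) in Spp1-low cells, a log2 ratio of 1.84 high over low (1.87 on plate 1 and 1.79 on plate 2). After each cell was thinned to 200000 counts, the cells with a read numbered 34 Spp1-high and 17 Spp1-low.

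Fam20c, the kinase of secreted proteins that modifies osteopontin, was another. It was read in 34 of 47 Spp1-high, 24 of 49 Spp1-middle and 18 of 47 Spp1-low cells. Its level ran between 0 and 2675 CPM (median 258) in Spp1-high cells and between 0 and 1234 CPM (median 0) in Spp1-low cells, again with overlap. The pooled level was 471 CPM (463 to 478) in Spp1-high cells and 170 CPM (166 to 175) in Spp1-low cells, with log2 ratios of 1.42 on plate 1 and 1.59 on plate 2.

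Atp6v0d2, the d2 subunit of the vacuolar proton pump and best known from osteoclasts, was read in 31 of 47 Spp1-high, 20 of 49 Spp1-middle and 15 of 47 Spp1-low cells. Pooled levels were 593 CPM in Spp1-high cells, 248 in Spp1-middle and 245 CPM in Spp1-low cells, a log2 ratio of 1.28 on plate 1 and 1.26 on plate 2. The highest single cells were alike, at 2629 CPM among Spp1-high and 2689 CPM among Spp1-low cells, so the groups differed in how many cells had a read and not in the top of their range.

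Plekhm1, an adaptor of late endosomes that osteoclasts need, was read in 31 of 47 Spp1-high and 14 of 47 Spp1-low cells, at pooled levels of 114.6 CPM (110.9 to 118.4) and 27.2 CPM (25.5 to 29.04). Its log2 ratio was 2.22 on plate 1 and 1.59 on plate 2. Tecpr1, a tether of autophagosomes to lysosomes, was read in 25 of 47 Spp1-high and 12 of 47 Spp1-low cells, with pooled levels of 120 and 32.4 CPM and log2 ratios of 1.65 and 2.14. These genes had many cells at 0 in both groups.

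Dkk2, a secreted modulator of Wnt signalling, was nearly unread in Spp1-low cells. It was read in 21 of 47 Spp1-high cells (44.7%, 30.2 to 59.9%), 16 of 49 Spp1-middle cells and 2 of 47 Spp1-low cells (4.26%, 0.520 to 14.5%). Pooled levels were 69.5 CPM in Spp1-high, 44.01 in Spp1-middle and 5.15 CPM in Spp1-low cells, and 1 cell held 95.1% of the Spp1-low sum of cell CPM. On plate 2 it had 52.7 CPM in Spp1-high cells and 0 counts in Spp1-low cells, a log2 ratio of 5.75 with 1 CPM added to each. With 0 counts in the 16 Spp1-low cells of that plate, the size of this ratio rests on the added 1 CPM.

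**Figure D3:**
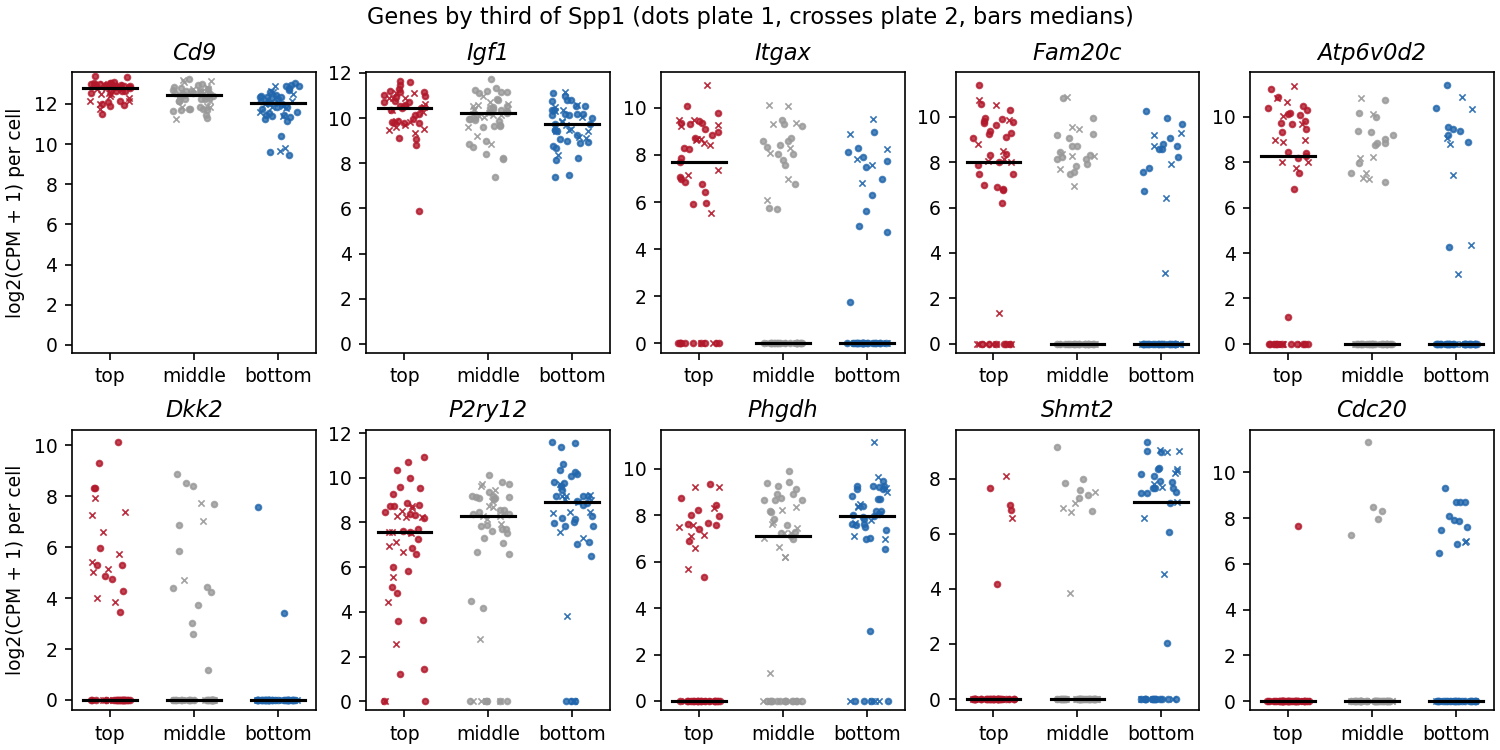
Level of 10 genes in each cell, as log2(CPM + 1), in the top, middle and bottom 3rds by Spp1 (Spp1-high, Spp1-middle and Spp1-low cells). Dots are plate 1, crosses plate 2 and bars medians; the Itgax median is 205 CPM in Spp1-high and 0 in Spp1-low cells, and the Shmt2 median 0 in Spp1-high and 142.4 CPM in Spp1-low cells.

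Across all cells of a plate, Spp1 can be set against each gene by rank. By the smaller of the within-plate Spearman correlations with Spp1, the first 8 were Cd9, Itgax, Rap2b, Aplp2, Pld3, Plekhm1, Atp6v0d2 and Dkk2. For Cd9, a tetraspanin of the same microglial programme, rho was 0.55 over the 95 cells of plate 1 and 0.47 over the 48 of plate 2. For Itgax it was 0.37 and 0.49, for Aplp2, a relative of the amyloid precursor protein, 0.44 and 0.34, and for Pld3, an endolysosomal nuclease, 0.33 and 0.44. Cells of a plate share library preparation, and both values of a pair share the cell's count total, so these are descriptions.

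Cd9 was read in every cell. It ran between 2935 and 10688 CPM (median 7190) in Spp1-high cells and between 699 and 8557 CPM (median 4165) in Spp1-low cells. The ranges overlapped over most of their length. Pooled levels were 6766 CPM in Spp1-high, 5553 in Spp1-middle and 4403 CPM in Spp1-low cells, with log2 ratios of 0.68 on plate 1 and 0.49 on plate 2, so Cd9 did not reach 1.5-fold on plate 2. Rap2b, a small GTPase, did pass, at 495 CPM in Spp1-high and 261 CPM in Spp1-low cells (log2 ratio 0.92), though it no longer did without the 8 cells under 10000 CPM of Spp1.

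Of all genes compared, 6.18% were called higher and 10.2% lower. Of 26 genes of the postnatal white matter and disease-associated programme, 3 were called higher (Itgax, Fabp5 and Axl) and 0 lower. Their median log2 ratio was 0.28 (0.12 without cells of a cycling class), against -0.08 for all genes. By any amount, 16 of the 26 were higher on both plates and 1 lower. That rule is looser than the calls, so these counts are not to be set beside 6.18% and 10.2%. Of all genes compared, 55.2% had the same sign on both plates, whether higher or lower, and the higher ones alone were not counted. Fabp5, a fatty acid binding protein, had 512 CPM in Spp1-high and 317 CPM in Spp1-low cells, a log2 ratio of 0.69 that was 0.40 and no longer called without the 8 cells under 10000 CPM of Spp1. Axl, a receptor for apoptotic cells, had 49.2 and 11.4 CPM but was read in 13 of 47 Spp1-high and 6 of 47 Spp1-low cells. The summed level of the 26 genes was 129036 CPM in Spp1-high cells and 107865 CPM in Spp1-low cells.

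Several well-known members did not pass. Igf1, the growth factor, had 1478 CPM in Spp1-high and 960 CPM in Spp1-low cells (log2 ratio 0.62, with 0.70 on plate 1 and 0.45 on plate 2). The gate gene Gpnmb had 4719 and 3194 CPM (0.56), and the other, Clec7a, 444 and 267 CPM (0.73, with 0.49 on plate 2). Apoe, the lipid carrier, had 39107 CPM in Spp1-high and 29480 CPM in Spp1-low cells (0.41). Trem2, the lipid-sensing receptor, had 1479 and 1465 CPM (0.01), and its adaptor Tyrobp 2912 and 2451 CPM (0.25). Lpl, the lipoprotein lipase, had 2113 and 2391 CPM (-0.18), and Plin2, the lipid droplet coat protein, 1373 and 1833 CPM (-0.42), the lowest ratio in the list.

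Among 21 measured genes of homeostatic microglia, 2 were called lower (P2ry12 and Crybb1) and 1 higher. These counts lie near the shares over all genes compared, 10.2% lower and 6.18% higher. The list's median was -0.10 (-0.29 on plate 1 and -0.09 on plate 2). It was 0.06 without cells of a cycling class and 0.03 when cells were ranked and compared by spike-in counts. P2ry12 ran between 0 and 1963 CPM (median 191) in Spp1-high cells and between 0 and 3063 CPM (median 479) in Spp1-low cells. Pooled, it had 326 CPM in Spp1-high, 331 in Spp1-middle and 635 CPM in Spp1-low cells (log2 ratio -0.95 on plate 1 and -1.01 on plate 2), so the Spp1-middle cells lay beside the Spp1-high ones. Without the 8 cells under 10000 CPM of Spp1 the ratio was -0.36, and P2ry12 was no longer called. Crybb1, a crystallin of microglia, had 8.44 CPM in Spp1-high and 43.2 CPM in Spp1-low cells but was read in only 8 and 15 cells. Fcrls and Cst3, read in every cell, each had a log2 ratio of -0.06, and Cx3cr1, the fractalkine receptor, 3185 and 4562 CPM (-0.52, not called).

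Of the 10 integrin and CD44 receptor genes, 7 passed the filter, 2 were called higher and 0 lower. Their median was -0.14, with values between -0.42 and 0.81 under other settings. The higher ones were Itga4 (39.4 CPM in Spp1-high and 7.21 CPM in Spp1-low cells) and Itga9 (21.2 and 0.536 CPM), alpha chains that bind a cryptic site of thrombin-cut osteopontin, and they were read in 11 and 6 cells and in 7 and 2 cells. The chains read most widely did not pass: Itgb1 had 267 CPM in Spp1-high and 306 CPM in Spp1-low cells (-0.19), Itgb5 211 and 234 CPM (-0.15) and Itgav 42.0 and 42.8 CPM (-0.03). Cd44 had 47.03 CPM in Spp1-high and 52.1 CPM in Spp1-low cells (-0.14). The log2 ratio of Itga9 was -1.27, so the other way round, without cells of a cycling class.

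Of the 11 genes for proteases that cut osteopontin and their regulators, 4 passed the filter and 0 were called (median 0.32, and -0.15 without cells of a cycling class). Timp2, an inhibitor of matrix metalloproteases, came nearest at 492 CPM in Spp1-high and 347 CPM in Spp1-low cells (0.50). The bone phosphoprotein genes beside Spp1 on chromosome 5, Ibsp, Dmp1, Mepe and Dspp, had 0 counts in every cell.

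In the Golgi list 12 of 14 genes passed the filter, 2 were called higher, Fam20c and Gnptab, and 0 lower. Its median was 0.28, which is -0.01 with the ranking split in 2 and -0.20 over genes read in at least 50% of cells. Over all genes compared, 6.18% were called higher and 10.2% lower. Gnptab, which starts the mannose 6-phosphate tag of lysosomal enzymes, had 77.1 CPM in Spp1-high and 28.3 CPM in Spp1-low cells (log2 ratio 1.42). Fam20b, the xylose kinase related to Fam20c, was not called (0.44), and Fam20a had 0 counts.

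Of 19 osteoclast-type genes, 8 passed the filter, 1 was called higher (Atp6v0d2) and 0 lower, while Ctsk, Dcstamp, Ocstamp, Oscar, Car2 and Mmp9 had 0 counts in every cell. The median of the 8 was 0.38 (0.26 on plate 1 and 1.02 on plate 2). The other subunits of the proton pump and lysosomal membrane genes gave no further call: of that list of 27, 1 was called, Atp6v0d2 itself, and the median was 0.12. The 15 cathepsin genes passing had 0 calls and a median of 0.07, and 29 lysosomal hydrolases had 0 higher and 1 lower.

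Of 20 lipid genes, 4 were called higher (Nceh1, Apoc2, Pltp and Fabp5) and 1 lower (Dgat1), with a median of 0.30. For this list and the next, the shares over all genes compared were 6.18% higher and 10.2% lower. Nceh1, a cholesterol ester hydrolase, had a log2 ratio of 1.05. Apoc2, an apolipoprotein, had 39.5 CPM in Spp1-high and 20.8 CPM in Spp1-low cells, but its log2 ratio was -0.22 without cells of a cycling class. Pltp, a phospholipid transfer protein, had 48.2 and 25.8 CPM, but its ratio was -0.56 with the ranking cut in 4 parts. Dgat1, which makes triglyceride, had a log2 ratio of -0.80. Of 30 genes reported to regulate Spp1, 22 passed the filter, 3 were called higher (Rxra, Usf1 and Atf3) and 0 lower, and their median was 0.10. Atf3, a stress-induced transcription factor, had the largest ratio of them (3.45), which was -0.33 without cells of a cycling class. Sfpi1, the gene of PU.1, chosen after its value was seen for the motif above, had a log2 ratio of -0.32 and was not called. Oxidative phosphorylation (57 genes) and glycolysis (17) had 0 calls in either direction and medians of 0.09 and 0.05.

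**Figure D4:**
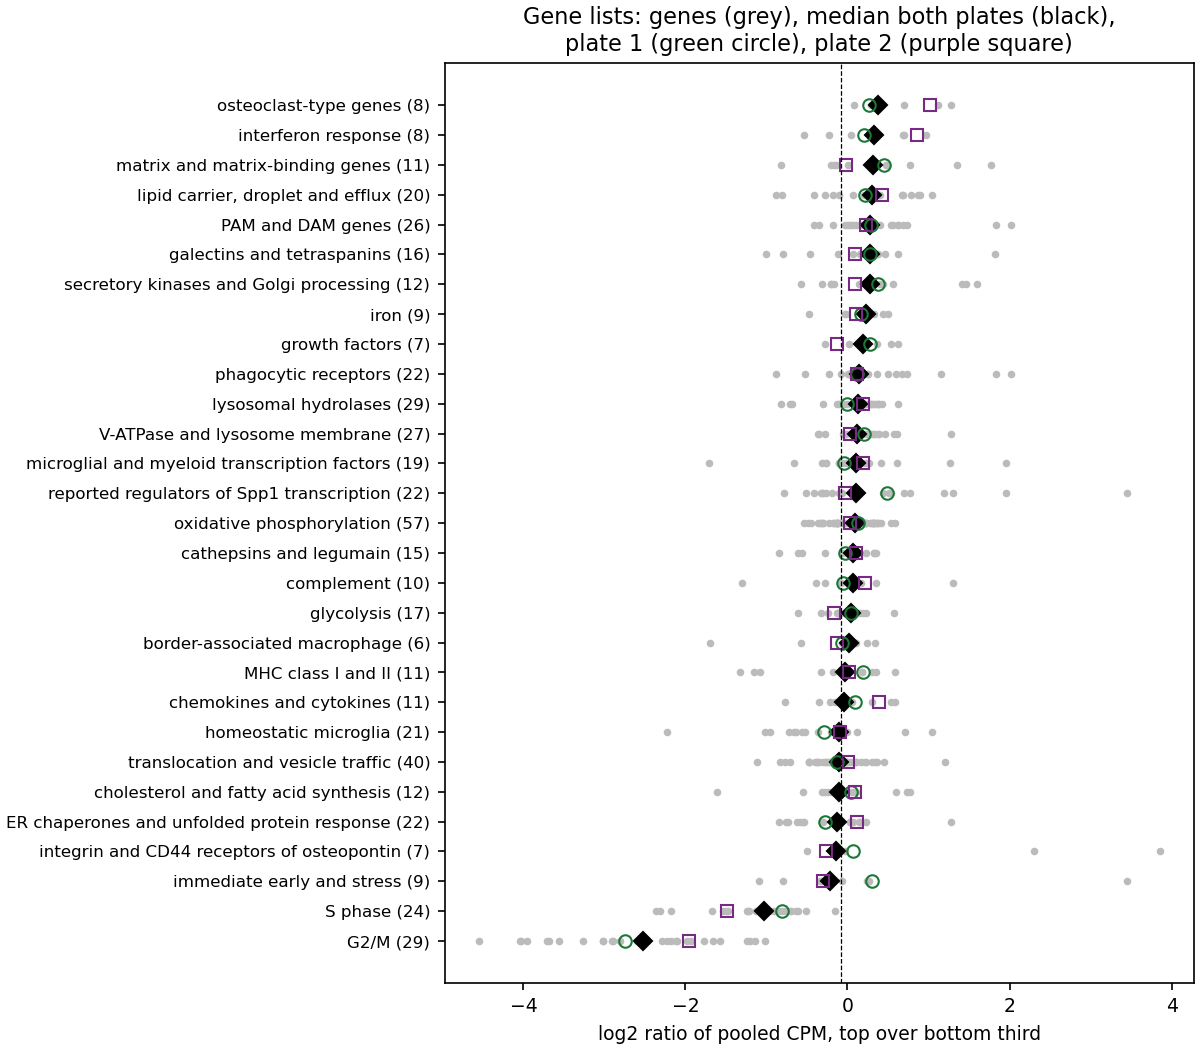
Log2 ratio of pooled CPM + 1, Spp1-high over Spp1-low cells, for the genes of each list that passed the filter (grey), with the list's median for both plates (black), plate 1 (green circle) and plate 2 (purple square). The dashed line is the median of all genes, -0.08; lists with at least 6 such genes are drawn, and of these only S phase and G2/M, at -1.03 and -2.53, have medians below -0.5, and they are 0.50 and 0.24 when cells are ranked and compared by spike-in counts.

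The cell cycle lists had the lowest medians of the lists drawn. Of 29 G2/M genes that passed the filter, 25 were called lower in Spp1-high cells and 0 higher, with a median log2 ratio of -2.53 (-2.74 on plate 1 and -1.96 on plate 2) that was 0.24 when cells were ranked and compared by spike-in counts. Of 24 S phase genes, 16 were called lower and 0 higher (median -1.03, with -0.81 and -1.49 on plates 1 and 2, and 0.50 when both were by spike-in counts). For 8 of the G2/M genes the Spp1-high cells of 1 plate had 0 counts, and with those genes at the floor of 3 counts the median was -2.63. With both the ranking and the comparison by spike-in counts, 3 of 29 G2/M and 1 of 24 S phase genes were called lower, and the median of all genes was 0.42. With the CPM ranking kept and only the comparison scaled to spike-in counts, 25 of 29 and 18 of 24 were called lower, and the median of all genes was -0.19.

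The 4 G2/M genes with the largest ratios were Aurka, a mitotic kinase, Ube2c, which serves the anaphase-promoting complex, Kif23, a motor of cytokinesis, and Ccnb1, cyclin B1. Aurka had 1.99 CPM in Spp1-high, 45.1 in Spp1-middle and 68.9 CPM in Spp1-low cells, and was read in 3, 10 and 13 cells. Ccnb1 was read in 1 of 47 Spp1-high and 12 of 47 Spp1-low cells, at 4.27 and 80.6 CPM. Cdc20, the activator of the anaphase-promoting complex whose promoter is printed above, was read in 1 of 47 Spp1-high, 5 of 49 Spp1-middle and 13 of 47 Spp1-low cells, at 4.65, 78.3 and 72.9 CPM. In each of these genes most cells were at 0. When cells were ranked and compared by spike-in counts, the log2 ratio was 0.43 for Aurka, 0.71 for Ccnb1 and 0.83 for Ube2c.

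In S phase the 4 largest ratios were those of Ung, Rrm1, Cdt1 and Rrm2. Rrm1, the large subunit of ribonucleotide reductase, was read in 12 of 47 Spp1-high and 27 of 47 Spp1-low cells, at 47.1 and 239 CPM. Its log2 ratio was -3.55 on plate 1 and -0.94 on plate 2, and over both 0.19 when cells were ranked and compared by spike-in counts. Without cells of a cycling class Cdt1 was at 1.88 and Rrm2 at 2.73, so higher in Spp1-high cells. Of the 25 lower G2/M genes, 21 had a promoter window matched by symbol, of which 16 (76.2%) held a CHR and 16 a CCAAT, beside 11.5% and 39.3% of the 5365 compared genes with a window. The shared motifs describe the list and say nothing about Spp1.

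The same genes were used to class cells. A cell was placed in the G2/M class when at least 8 of 31 G2/M genes stood at 10 CPM or more, and otherwise in the S class when at least 6 of 24 S genes did. The G2/M class held 3 of 47 Spp1-high cells (6.38%, 1.34 to 17.5%), 9 of 49 Spp1-middle cells and 17 of 47 Spp1-low cells (36.2%, 22.7 to 51.5%). The direction was the same on both plates, with 2 of 31 against 13 of 31 cells on plate 1 and 1 of 16 against 4 of 16 on plate 2. On plate 2 the intervals, 0.158 to 30.2% and 7.27 to 52.4%, overlapped. The S class held 16 Spp1-high and 14 Spp1-low cells, but it leaves out cells already placed in the G2/M class. Counted without regard to class, the median number of S genes at 10 CPM or more was 4 in Spp1-high and 10 in Spp1-low cells. Cells of neither class numbered 28 of 47 Spp1-high and 16 of 47 Spp1-low.

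Spp1 in turn can be read by class and by scaling. In CPM the median of the 22 G2/M class cells of plate 1 was 34333, against 52425 in the 26 S class and 50286 in the 47 other cells. On plate 2 the medians were 30471 in 7 G2/M class cells, 52690 in 16 S class and 50829 in 25 other cells. Cells of the G2/M class also had more gene counts per spike-in count, with medians of 27.5 on plate 1 and 29.8 on plate 2, against 20.1 and 20.7 in cells of neither class. Per spike-in count, Spp1 was 0.868 in G2/M class cells, 1.31 in S class and 1.11 in other cells on plate 1, and 1.06, 1.34 and 1.06 on plate 2. A smaller share of Spp1 and a larger total of other RNA cannot be told apart from CPM alone.

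**Figure D5:**
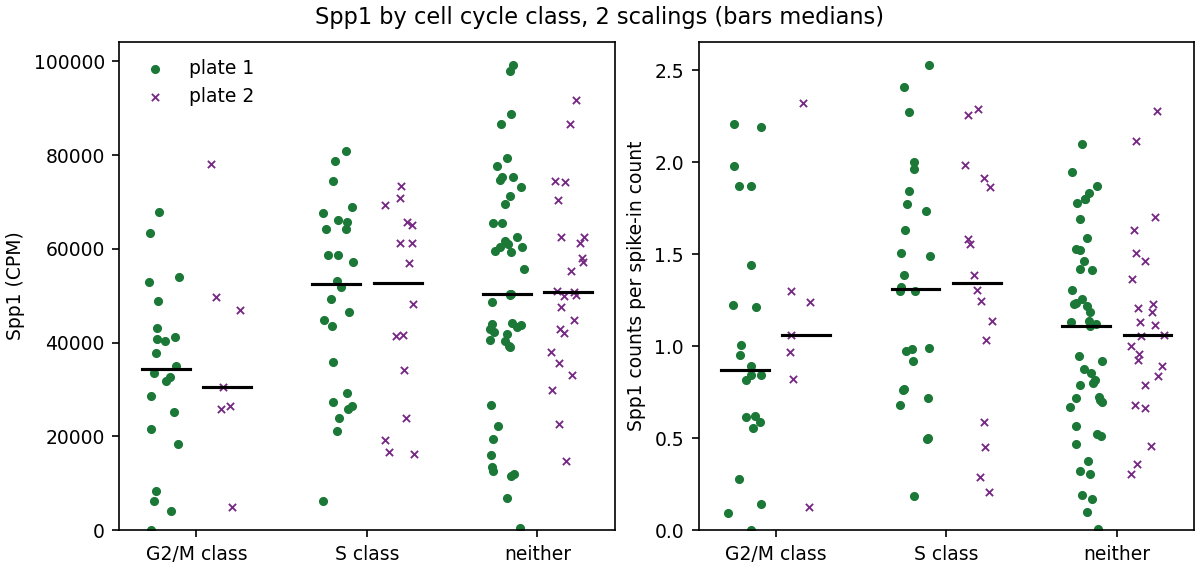
Spp1 of each cell by cell cycle class, as CPM (left) and as counts per spike-in count (right), with plate 1 as circles, plate 2 as crosses and bars at the medians. The G2/M class lies lower in CPM (34333 and 30471, against 50286 and 50829 in cells of neither class), and per spike-in count it lies lower on plate 1 (0.868 against 1.11) and level on plate 2 (1.06 and 1.06).

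With all 71 cells of a cycling class left out, the remaining 72 cells were ranked again, giving 23 Spp1-high and 23 Spp1-low cells. There the log2 ratio of Itgax was 1.79, of Fam20c 2.66, of Tecpr1 2.26, of Plekhm1 1.20, of Dkk2 1.08 and of Atp6v0d2 0.94. All 6 were called higher in this set. Its 23 Spp1-high cells were all Spp1-high in the main comparison, where these 6 genes were already called, so this is no independent repeat. Of all genes compared, 730 were called higher and 816 lower in this set. Of the 74 called genes named here, 41 were still called. Cd9 passed on both plates in this set (0.80). P2ry12 (-0.46), Fabp5 (0.50) and Rap2b (0.70) did not pass, nor did Tm7sf3 (1.27), Acot2 (0.71), Poldip2 (1.54) and Nampt, whose ratio was -0.97. G2/M genes called lower numbered 4 and S phase genes 0. The cells left out were chosen by these same genes, so these 2 counts follow from the class rule and test nothing.

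Of the genes lower in Spp1-high cells, the 12 with the largest smaller-of-plates ratio among those read in at least 30% of cells were Shmt2, Tacc3, Gm6548, Smc2, Dtymk, N4bp2l2, Hmgb2, Alad, Nutf2, Asf1b, St3gal5 and Lsm3. Tacc3 works at the spindle, Smc2 in condensin, Hmgb2 in chromatin and Asf1b as a histone chaperone, all roles in dividing cells. Dtymk makes the precursor of thymidine triphosphate, Alad acts in haem synthesis, and St3gal5 makes the ganglioside GM3. Gm6548 is annotated as a processed pseudogene, whose reads may belong to its parent gene. The ratios of Smc2 (0.13) and Asf1b (0.53) were above 0 when cells were ranked and compared by spike-in counts, and that of Hmgb2 (0.12) without G2/M class cells.

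Shmt2, the mitochondrial serine hydroxymethyltransferase, had the largest of these ratios. It ran between 0 and 271 CPM (median 0) in Spp1-high cells and between 0 and 635 CPM (median 142.4) in Spp1-low cells. A read was found in 6 of 47 Spp1-high (12.8%, 4.83 to 25.7%), 12 of 49 Spp1-middle and 29 of 47 Spp1-low cells (61.7%, 46.4 to 75.5%). Pooled levels were 16.5 CPM in Spp1-high, 40.4 in Spp1-middle and 172 CPM in Spp1-low cells, with log2 ratios of -3.39 on plate 1 and -3.18 on plate 2. Without cells of a cycling class the ratio was -2.33 and still past the limit on both plates, and with cells ranked and compared by spike-in counts it was -1.60 and no longer called.

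Phgdh, the first enzyme of serine synthesis, was read in 21 of 47 Spp1-high, 31 of 49 Spp1-middle and 39 of 47 Spp1-low cells, at 118.9, 201 and 327 CPM (log2 ratio -1.51 on plate 1 and -1.37 on plate 2). By rank correlation with Spp1, the lowest genes after Shmt2 (-0.38 on plate 1 and -0.43 on plate 2) and Phgdh (-0.38 and -0.35) were Serinc3, Ncl, Cdca3, Dtymk, Cdc20 and Lsm3, a set chosen after its values were seen. Ncl, nucleolin of the nucleolus, had 168 CPM in Spp1-high, 251 in Spp1-middle and 334 CPM in Spp1-low cells (log2 ratio -0.99). Serinc3, a membrane protein of the serine incorporator family, had 326, 568 and 635 CPM (-0.96). Both were called lower without cells of a cycling class too, at -1.13 and -1.01. With cells ranked and compared by spike-in counts, Phgdh (-0.42), Ncl (-0.08) and Serinc3 (-0.76) were not called.

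Itgax lies on chromosome 7 (128129547 to 128150657, plus strand), Fam20c on chromosome 5 (138754514 to 138810077, plus), Atp6v0d2 on chromosome 4 (19876841 to 19922605, minus), Dkk2 on chromosome 3 (132085292 to 132180304, plus) and Phgdh on chromosome 3 (98313170 to 98339990, minus), all in GRCm38, and none of these overlaps another annotated gene. Plekhm1, Shmt2, P2ry12, Cd9 and Cdc20 overlap a gene on the opposite strand (for Shmt2, Ndufa4l2, and for P2ry12, Med12l). The sources used here do not name the strand setting of the counting, so reads of such pairs cannot be told apart.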

How the data were processed

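Counts per gene were deposited by the authors as whole numbers for 23337 genes and 92 spike-ins in 143 cells. Per the submitters' processing notes, Trim Galore 0.4.3, STAR 2.5.3a, Picard, HTSeq and the mm10 build were used. The sources used here do not name the strand setting. No further filter on cells was applied, since every cell had met the authors' quality criteria per the labels, no 2 cells held identical counts, and doublets were not called. From the counts, pooled CPM (Spp1 and spike-ins left out of the total), log2 ratios of CPM + 1 and the call rule of 1.5-fold on each plate were computed in Python 3.11.15 with numpy 2.4.6, pandas 2.3.3, scipy 1.17.1 and matplotlib 3.10.9. The scripts were tested on simulated data. Genes named are Spp1, the 12 highest and 12 lowest called genes read in at least 30% of cells, the 8 highest rank correlations, members of the osteopontin, programme and osteoclast-type lists, and up to 4 of each other list with the largest ratios. Genes outside that rule were chosen after their values were seen. The members and lists were chosen with earlier results of these data known. Alternatives changed the scaling, the ranking, the share of cells compared, the filter, the depth and the cells kept. Spi1 stands under its older symbol Sfpi1. A few genes counted in the lists are not reported here by name.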

Additional observations from a re-analysis of the deposited data

How the results depend on the processing

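Of 74 called genes named here, 74 were still called without Rn45s in the total and by the mean of cell CPM, 73 after thinning to 200000 counts, 70 without the highest cell of each gene, 62 with the ranking cut in 4 parts, 61 by mean log2 values, 60 ranked within strata of genes detected and 56 with it cut in 2. The widest departures came from ranking and comparing by spike-in counts and from leaving out cells of a cycling class, where 41 each were still called. With ranking and comparison by spike-in counts 1409 genes were higher and 198 lower, with 3 G2/M and 1 S phase genes lower, and the median of all genes was 0.42. With the comparison alone so scaled, 353 genes were higher and 922 lower, with 25 G2/M and 18 S phase genes lower and 72 of the 74 still called. Without cycling class cells 730 genes were higher, and 4 G2/M and 0 S phase genes lower. S phase genes lower numbered 9 with the ranking cut in 2 and 7 within strata of genes detected. With no filter 817 genes were higher and 1229 lower, and among genes read in 50% of cells at 50 CPM 27 and 68, with 0 G2/M genes tested and 4 of 4 S phase genes lower. Leaving out G2/M class cells gave 3 G2/M and 4 S phase genes lower. That setting and the one without cells under 10000 CPM of Spp1 were chosen after seeing the data. The classes were defined by the cell cycle genes, so counts of those genes without cycling or G2/M class cells test nothing about them.

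The log2 ratio changed sign by spike-in ranking for Asf1b (0.53), Aurka (0.43), Ccnb1 (0.71), Cspg4 (0.31), Dkc1 (0.50), Rrm1 (0.19), Rrm2 (0.25), Smc2 (0.13) and Ube2c (0.83). It did so without cycling class cells for Apoc2 (-0.22), Atf3 (-0.33), Cbr2 (0.78), Cdt1 (1.88), Itga9 (-1.27), Nampt (-0.97) and Rrm2 (2.73), and without G2/M class cells for Hmgb2 (0.12) and Itga9 (-0.21). With the ranking cut in 4 Pltp was at -0.56, and within strata of genes detected Cspg4 was at 0.14. The cause was not tested. Itgax and Fam20c were called in all 15 settings run for them, at 1.60 to 3.29 and 1.35 to 3.06. No paired analysis was possible because the labels give 1 group of cells. Sparse genes limit what the depth can show: most calls were in genes read in under 50% of cells.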

Other observations

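Genes of serine synthesis and one-carbon metabolism were listed after the values of Shmt2 and Phgdh had been seen, so their counts are a description. Of 13 genes that passed the filter, 7 were called lower in Spp1-high cells and 0 higher, among them Phgdh, Psph, Shmt2, Mthfd1, Tyms and Dtymk. The median log2 ratio was -1.01 (-0.94 on plate 1 and -1.37 on plate 2), and -0.33 without cells of a cycling class, where 5 were lower and 2 higher. Psph, the last enzyme of serine synthesis, had a ratio of -1.21, and Psat1, the enzyme before it, -0.13. Of 15 nucleolar genes, also listed after values were seen, 5 were called lower and 0 higher: Ncl (-0.99), Nop56 (-1.56), Dkc1 (-1.36), Pes1 (-1.25) and Bop1 (-1.06). Over all genes compared, 10.2% were called lower and 6.18% higher. Dkc1 was at 0.50 with cells ranked and compared by spike-in counts.

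Among 19 genes of autophagosome and lysosome fusion, listed after Plekhm1 and Tecpr1 had been seen, 3 were called higher and 0 lower (median 0.17). Without cells of a cycling class 3 were higher and 3 lower (median 0.02). The shares over all genes compared were 6.18% higher and 10.2% lower. Beside Plekhm1 and Tecpr1, the gene called higher was Vps4b, an ATPase that takes apart membrane-cutting filaments. It had 154 CPM in Spp1-high and 59.7 CPM in Spp1-low cells. Of 20 Wnt pathway genes listed after Dkk2 had been seen, 6 passed the filter and 2 were called higher, Dkk2 and the co-receptor Lrp6 (0.91), while Dkk1, Dkk3, Axin2 and Lef1 had 0 counts in every cell.

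Over the 13 settings that alter calls, 35 of the 7263 genes compared were called higher and 20 lower in every one. The settings reuse the same cells, so they are not independent repeats. Without the setting that ranks and compares by spike-in counts, the genes called in every setting were 39 higher and 68 lower. Of genes called in all 13 settings, 13 higher and 4 lower ones were read in at least 30% of cells, and 16 and 29 without that setting. The higher ones hold Ccng1, a cyclin of the p53 response, with 149 CPM in Spp1-high and 51.5 CPM in Spp1-low cells, and Cd200r4, an activating receptor of the CD200 receptor family, with 143 and 50.9 CPM. Mapk3, the kinase ERK1, had 97.6 and 42.6 CPM. The lower ones were Orc2, a subunit of the origin recognition complex, with 11.8 CPM in Spp1-high and 48.8 CPM in Spp1-low cells, Sh3bp1 (20.7 and 67.4 CPM), Tssc4 (34.1 and 92.4 CPM) and 2310035C23Rik (16.2 and 55.6 CPM). These genes were picked by that count after their values were seen.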
